A study of Mus musculus with 4 samples.

Results

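Surface proteins through which tumour cells restrain or trigger T cells, NK cells and phagocytes were followed at the level of their mRNA: Cd274 (PD-L1), Cd276 (B7-H3), Pvr (CD155), Nectin2 (CD112), Cd47 and Nt5e (CD73). They were chosen by gene symbol, as 6 of the 51826 genes listed, and all 6 had values. Poly(A) RNA came from MC38/gp100, a mouse cancer cell line grown in culture. MC38 was derived from a colon tumour of the C57BL/6 strain; gp100 is a melanocyte protein, the product of Pmel. The 2 groups were cells given GSK3368712 at 1 µM for 5 days and cells given DMSO, the solvent, for the same 5 days. GSK3368712 inhibits the type I protein arginine methyltransferases, which add asymmetric dimethyl marks to arginines of proteins. With 2 libraries a group, the letters A and B are those of the table's column names. The labels do not say whether these came from separate cultures, so p-values measure only the spread between libraries, which may be technical. No T cell, NK cell or phagocyte was added according to the labels, so the values describe the ligand side alone.

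PD-L1 binds PD-1 on activated T cells and dampens signalling by the T cell receptor. CD155 and CD112 are adhesion molecules of the nectin family. CD155 triggers NK and T cells through CD226 and restrains them through TIGIT, while CD112 has the inhibitory receptor PVRIG in human cells. B7-H3 is a B7 family protein that many tumours carry, and its receptor is not settled. CD47 binds SIRP-alpha on macrophages and holds back phagocytosis. CD73 is an ectoenzyme that turns extracellular AMP into adenosine, which restrains T cells through adenosine receptors. Interferon-gamma is a known inducer of PD-L1.

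Few reads were counted at genes. Their total per library, recovered from the base means of genes with values, lay between 1079810 and 1176172. It is not the number of reads sequenced. The median base mean (reads divided by the size factor, averaged over the 4 libraries) was 22.6. The 6 ligand genes had base means from 0.508 to 64.6. Of the 20 genes highest in base mean, 18 had an exon that overlaps an exon of the other strand, and genes with such an overlap, 33.5% of those with values, held 59.4% of the base-mean total. The base mean was 2273.4 at mt-Nd6 and 195 at mt-Co1, which lie on opposite strands of the mitochondrial genome. It was 1637.9 at mt-Nd5, which overlaps mt-Nd6, and 2203 at Actb, which has no exon overlapping one of the other strand. No source used here gives the strand setting of the counting, so reads at a gene and at its antisense partner cannot be told apart, and whether values are those of the annotated strand was not tested. This bears on every level below, that of genes with no such overlap included. If the other strand was the one counted, reads of the gene's own mRNA would be left out.

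Pvr, Cd47 and Nt5e had no exon overlapping one of the other strand (GENCODE vM21, build GRCm38). Cd274 did, along 511 bp (14.1% of its exon length), shared with the antisense RNA AC119228.1, and all of this stretch is coding. Nectin2 shared 135 coding bases with Gm20512, and Cd276 shared 416 bp, none of it coding, with Gm10657. A coding stretch of each of Cd274 and Nectin2 is shown because reads from them cannot be assigned to one strand or the other. The first is the start of exon 3 of Cd274 (chr19:29373558-29373757, plus strand), and the second is exon 6 of Nectin2 (chr7:19721353-19721506, minus strand). Both are read 5′ to 3′ along the gene, from the GENCODE transcripts ENSMUST00000016640.7 and ENSMUST00000075447.13. Capitals mark the 115 and 135 bases that an exon of the other strand covers.
Cd274 exon 3: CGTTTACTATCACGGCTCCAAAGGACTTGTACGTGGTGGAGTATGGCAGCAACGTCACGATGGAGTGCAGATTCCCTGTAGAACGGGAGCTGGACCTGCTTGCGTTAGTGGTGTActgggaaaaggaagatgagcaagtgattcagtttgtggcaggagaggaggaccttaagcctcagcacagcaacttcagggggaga
Nectin2 exon 6: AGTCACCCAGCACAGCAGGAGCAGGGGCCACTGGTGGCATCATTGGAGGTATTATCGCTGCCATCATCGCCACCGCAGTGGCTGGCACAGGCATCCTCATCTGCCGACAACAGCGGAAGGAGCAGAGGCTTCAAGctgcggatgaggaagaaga

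The comparison of GSK3368712 with DMSO asks which transcripts change under type I PRMT inhibition. None of the ligand genes passed the test. Of the 6, 4 reached the base mean of 10 needed for testing (Pvr, Nectin2, Cd276 and Cd47), and 0 of these 4 were called, against 2.14% of the 8562 genes tested, 1.3% higher and 0.841% lower (limma on the deposited log2 values, Benjamini-Hochberg adjusted p under 0.05). At an unadjusted p under 0.05 there was 1, Pvr, among 1045 of all genes tested. In the authors' deposited DESeq2 table, which gives an adjusted p for 3 of the 6, again 0 passed, against 0.574% of 4527 genes. The median log2 fold change was -0.01 over the 4 and 0.01 over all genes tested. Pvr had the lowest p of the 4 and lower values in both GSK3368712 libraries. Cd274 (9.05) and Nt5e (0.508) had base means under the minimum and are given as reads with no test. Fewer cells carrying a transcript and less of it per cell cannot be told apart in such bulk RNA.

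**Figure D1:**
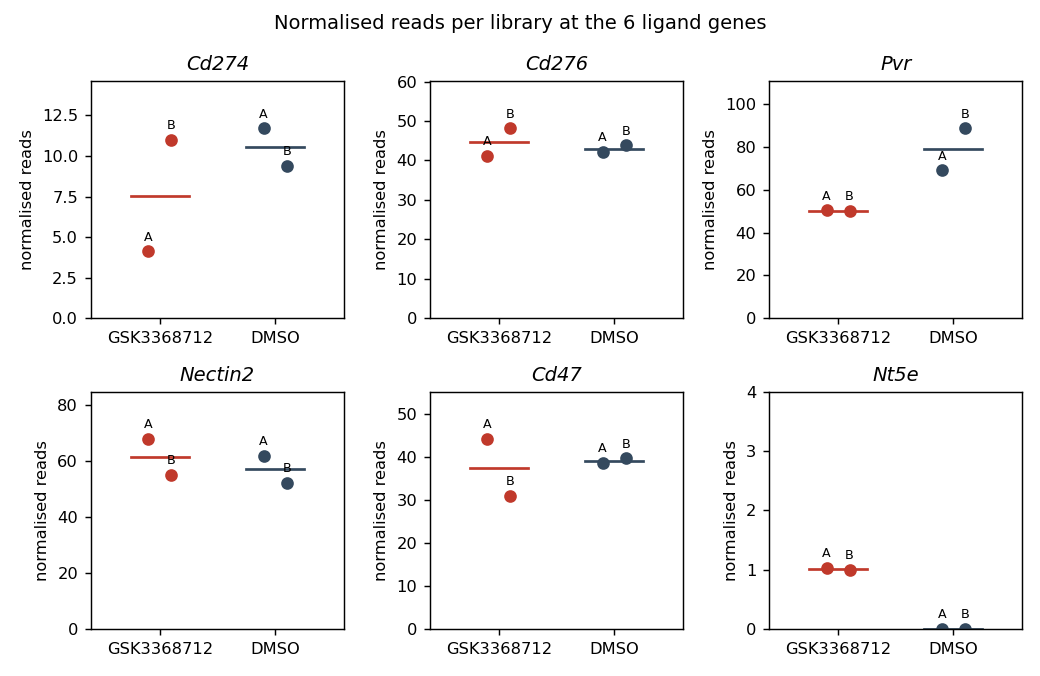
Normalised reads (reads divided by the size factor) on the y axis at each of the 6 ligand genes, with GSK3368712 left and DMSO right; points are libraries A and B and lines are means of 2. Pvr is the one tested gene whose groups do not overlap, with 50.4 and 50.1 in GSK3368712 against 69.1 and 88.7 in DMSO.

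Cd274 encodes PD-L1 (ENSMUSG00000016496.7, chromosome 19, 29367455 to 29388095, plus strand). It held 4 and 11 reads in GSK3368712 A and B, against 13 and 9 in DMSO A and B. The single library with the fewest reads was GSK3368712 A, and the groups overlapped. Summed over the group, this was 15 reads in GSK3368712 (95% Poisson interval 8.4 to 24.7) and 22 in DMSO (13.8 to 33.3), and such intervals cover counting error only. Normalised reads averaged 7.57 ± 4.88 in GSK3368712 and 10.5 ± 1.6 in DMSO (SD, n = 2 each). The difference of log2(normalised reads + 1) was -0.55 with all libraries, 0.07 without GSK3368712 A and -1.17 without GSK3368712 B, so it rested on single libraries. The counting intervals of the group sums overlapped, and no test was made at the PD-L1 gene. Its paralogue Pdcd1lg2 (PD-L2), a further ligand of PD-1, had no values.

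Cd276 encodes B7-H3 (ENSMUSG00000035914.11, chromosome 9, 58524298 to 58555437, minus strand). It held 40 and 48 reads in GSK3368712 A and B, against 47 and 42 in DMSO. The groups overlapped fully, and GSK3368712 B was the highest after normalisation. Normalised reads averaged 44.6 ± 4.89 in GSK3368712 and 43.0 ± 1.18 in DMSO (SD, n = 2 each). The log2 fold change, here and below from limma on log2(normalised reads + 1), was 0.05 ± 0.24 (SE; limma, adjusted p = 0.97), with a 95% interval of the fold from 0.748 to 1.43. The interval rests mostly on a spread shared over all genes, since 2 libraries a group give little of their own.

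Pvr encodes CD155 (ENSMUSG00000040511.14, chromosome 7, 19903578 to 19921160, minus strand). It held 49 and 50 reads in GSK3368712 A and B, against 77 and 85 in DMSO. After normalisation this was 50.4 and 50.1 in GSK3368712, against 69.1 and 88.7 in DMSO. Both GSK3368712 libraries lay below both DMSO libraries, and most of the spread was between the 2 DMSO libraries. Of all genes tested, 20.5% had both GSK3368712 libraries lower in this way and 20.7% had both higher. The means were 50.2 ± 0.239 in GSK3368712 and 78.9 ± 13.9 in DMSO (SD, n = 2 each). The log2 fold change was -0.63 ± 0.20 (SE), a fold of 0.646 with a 95% interval from 0.489 to 0.854. Over all genes this did not pass (limma, adjusted p = 0.080), and its p ranked 235 among 8562. In the authors' deposited table the log2 fold change was -0.65 ± 0.34 (SE; DESeq2, adjusted p = 0.9997). Without DMSO A the gene was called (limma, adjusted p = 0.043), and without DMSO B the adjusted p was 0.48. In this and the other fits without 1 library, the lone library of a group is assumed to vary like the libraries of the other group. An exact permutation test of 2 libraries against 2 cannot give a p below 0.333.

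Nectin2 encodes CD112 (ENSMUSG00000062300.14, chromosome 7, 19716644 to 19750483, minus strand). It lies 153094 bp from Pvr on the same strand, with 6 protein-coding genes between them. It held 66 and 55 reads in GSK3368712 A and B, against 69 and 50 in DMSO. In both groups library A was the higher one, and the groups overlapped. Normalised reads averaged 61.5 ± 9.07 in GSK3368712 and 57.0 ± 6.87 in DMSO (SD, n = 2 each), and the log2 fold change was 0.10 ± 0.21 (SE; limma, adjusted p = 0.92). The 95% interval of the fold ran from 0.807 to 1.43. It overlapped the interval at Pvr (0.489 to 0.854), although the fold fitted at Pvr (0.646) lay outside the Nectin2 interval. The difference between the responses of the 2 genes was not tested.

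Set against each other within a library, which removes the scaling between libraries, Pvr had 0.742 and 0.909 reads for each Nectin2 read in GSK3368712 A and B. In DMSO A and B it had 1.12 and 1.70. Pvr reads were thus fewer than Nectin2 reads in both GSK3368712 libraries and more numerous in both DMSO libraries, before any correction for gene length. Per length the ratio was below 1 in all 4 libraries, at 0.424 and 0.519 in GSK3368712 and 0.637 and 0.97 in DMSO. With 2 libraries a group this ratio is a description.

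Cd47 (ENSMUSG00000055447.18, chromosome 16, 49800533 to 49915010, plus strand) held 43 and 31 reads in GSK3368712 A and B, against 43 and 38 in DMSO. The highest and the lowest normalised values were both GSK3368712 libraries, 44.2 and 31.0, with DMSO between them at 38.6 and 39.7. The means were 37.6 ± 9.33 in GSK3368712 and 39.1 ± 0.769 in DMSO (SD, n = 2 each). The log2 fold change was -0.08 ± 0.25 (SE; limma, adjusted p = 0.96), and the 95% interval of the fold ran from 0.671 to 1.34. Its sign turned when GSK3368712 B was left out (0.17). The version of this gene's ID differs from that of GENCODE vM21, so its gene model in the authors' counting may differ from the coordinates and exon length given here.

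Nt5e (ENSMUSG00000032420.8, chromosome 9, 88327197 to 88372092, plus strand) held 1 read in each GSK3368712 library and 0 reads in each DMSO library. A count of 0 allows up to 3 reads per library, so no difference was detectable and no fold is given, although the groups did not overlap, as was so at 34.4% of all genes under the minimum. As counted, Nt5e was at the edge of detection in all 4 libraries. Since the strand of counting is not known, the level of CD73 mRNA cannot be read from this.

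**Figure D2:**
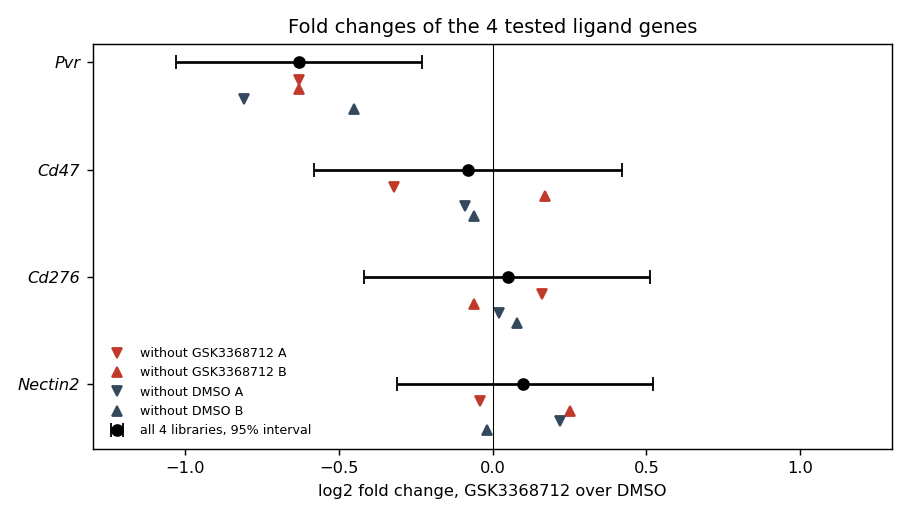
Log2 fold change of GSK3368712 over DMSO (x axis) for the 4 tested ligand genes; black points and bars are the estimate and 95% interval with all 4 libraries, and triangles the estimate without 1 library. Pvr stays negative in all of these (-0.81 to -0.45), while Cd47, Cd276 and Nectin2 cross 0.

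Levels can be compared between genes only per length. Per kb of annotated exon, Nectin2 was the most abundant of the 6 in both groups, with 17.6 ± 2.59 normalised reads per kb in GSK3368712 and 16.3 ± 1.97 in DMSO (SD, n = 2 each). In GSK3368712 the order then ran Cd276 (12.2 ± 1.34), Pvr (8.21 ± 0.039), Cd47 (6.0 ± 1.49), Cd274 (2.09 ± 1.35) and Nt5e (0.118 ± 0.00225). The ranges of neighbours in this order did not overlap. In DMSO the order was Pvr (12.9 ± 2.27), Cd276 (11.8 ± 0.324), Cd47 (6.23 ± 0.123) and Cd274 (2.91 ± 0.443) after Nectin2, with Nt5e at 0. Pvr and Cd276 could not be separated there, since both Cd276 libraries lay between those of Pvr. The place of Pvr relative to Cd276 is the one difference in order between the groups.

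**Figure D3:**
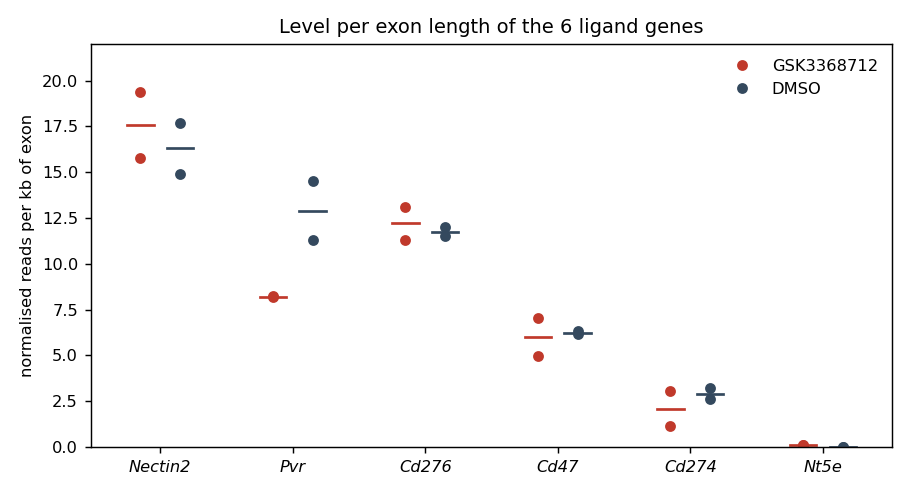
Normalised reads per kb of annotated exon (y axis) for each ligand gene, ordered by the DMSO mean; points are libraries, short lines means of 2, GSK3368712 left of DMSO. Nectin2 leads in both groups (17.6 and 16.3), and Pvr lies under Cd276 in GSK3368712 but overlaps it in DMSO.

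The 8 lists of genes that act with these ligands were read in the same fit. Leaving out the 6 ligand genes, they hold 90 genes, of which 48 had values and 33 were tested. None was called higher and 2 were called lower (6.06%, against 2.14% of all genes tested in either direction). The lists were chosen with earlier results of these data known, so this share is a description. The median log2 fold change of the 33 was 0.12, against 0.01 over all genes. The groups did not overlap in 45.5% of the 33, against 41.1% of all genes tested. The 2 called lower were Thbs1 and Trappc4.

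Thbs1 encodes thrombospondin-1, a secreted ligand of CD47. It is in the list of phagocyte signals (11 genes), where 1 of 8 tested was called lower and 7 did not pass. It held 479 and 424 reads in GSK3368712 A and B, against 912 and 650 in DMSO. The log2 fold change was -0.70 ± 0.13 (SE; limma, adjusted p = 0.00011), and the gene shares exon with Gm29233 on the other strand. It was not called without GSK3368712 B (limma, adjusted p = 0.21) or without an abundance minimum (0.095), while the authors' deposited table gave an adjusted p of 0.0041 (DESeq2). Qpctl, the enzyme that modifies the N-terminus of CD47 for SIRP-alpha binding, shares exon with Fbxo46 on the other strand and held 28 and 35 reads in GSK3368712, against 28 and 38 in DMSO, a log2 fold change of 0.01 ± 0.28 (SE) whose sign turned with scaling by library total (-0.03).

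Trappc4 encodes a vesicle transport protein that, in human cells, is reported to keep PD-L1 from degradation. In the list of PD-L1 turnover genes all 12 were tested, 1 was called lower and 11 did not pass. Trappc4 held 24 and 34 reads in GSK3368712 A and B, against 57 and 73 in DMSO. The value counted at Trappc4 fell by 1.08 ± 0.24 on the log2 scale (SE; limma, adjusted p = 0.0022). The gene shares 462 bp of exon with the ribosomal protein gene Rps25 on the other strand. Which of these genes the reads came from was not tested. The call was lost without DMSO B (limma, adjusted p = 0.20) and without GSK3368712 A (0.16), as well as without an abundance minimum (0.21), and the authors' deposited table gave an adjusted p of 0.40 (DESeq2). Cmtm6, which holds PD-L1 at the cell surface, was counted at 18 and 9 reads in GSK3368712, against 10 and 12 in DMSO (log2 fold change 0.27 ± 0.45, SE; limma, adjusted p = 0.85).

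No gene of the other 6 lists passed. Among B7 and PD-1 pathway ligands 3 of 11 were tested, of which Icosl, the ligand of ICOS, had the smallest p (log2 fold change 0.38 ± 0.46, SE; limma, adjusted p = 0.89). Among nectins and nectin-like proteins 3 of 10 were tested, and Pvr had the smallest p. Its relatives Nectin1 (2 and 10 reads in GSK3368712, against 6 and 4 in DMSO) and Nectin3 (12 and 7, against 5 and 9) lay under the abundance minimum. Of 12 ligands of NK receptors only H2-T23 was tested; it encodes the heavy chain of Qa-1, a ligand of NKG2A, and belongs to a family of similar genes, so its value is uncertain (0.22 ± 0.16, SE; limma, adjusted p = 0.64). The NKG2D ligand Raet1e had no values.

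Among genes of extracellular nucleotides and adenosine 3 of 16 were tested, led by Adk, adenosine kinase (log2 fold change 0.77 ± 0.40, SE; limma, adjusted p = 0.41). Entpd1 (CD39), which makes the AMP that CD73 uses, had no values. Among 13 other inhibitory ligands 5 were tested, and Lgals1, galectin-1, had the smallest p, with 1843 and 2173 reads in GSK3368712 A and B, against 1693 and 1591 in DMSO (0.35 ± 0.13, SE; limma, adjusted p = 0.20). Among TNF family ligands and receptors 2 of 11 were tested, led by Tnfrsf10b, the TRAIL receptor (0.34 ± 0.29, SE; limma, adjusted p = 0.73).

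**Figure D4:**
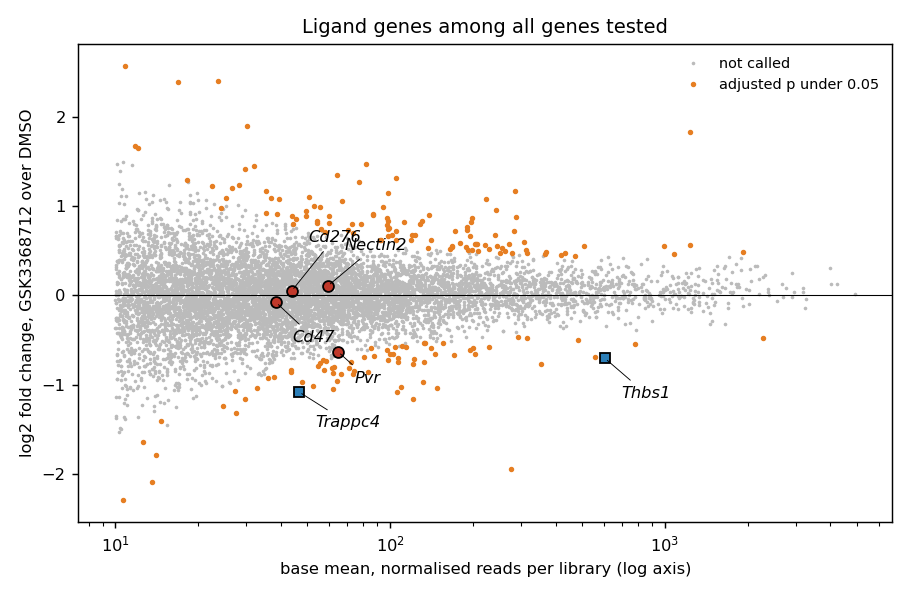
Log2 fold change of GSK3368712 over DMSO (y axis) against the base mean (log x axis) for 8554 tested genes with recovered reads; orange points passed at an adjusted p under 0.05. Red circles are the 4 tested ligand genes, none of which passed; blue squares are Thbs1 (-0.70) and Trappc4 (-1.08), the genes of the accompanying lists that did.

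Markers of other cells were read from the same table. Of 15 receptors for such ligands on lymphocytes and phagocytes, 12 had no values, among them Pdcd1, Cd226 and Sirpa. The summed level of the rest was 8.23 and 1.00 normalised reads in GSK3368712 A and B, against 14.4 and 10.4 in DMSO. Most of it was at Tigit, with 6 and 1 reads in GSK3368712 A and B, against 13 and 9 in DMSO. Tigit, named after its values were seen, lay under the abundance minimum and carries no test. Its groups did not overlap, as was so at 34.4% of all genes under the minimum. Of 12 leukocyte markers 8 had no values, Ptprc and Cd3e included. The sum of the other 4 was 527 and 523 in GSK3368712, against 449 and 517 in DMSO, nearly all of it at Csf1r (base mean 473), which overlaps Hmgxb3 on the other strand. Epcam was among 5 of 10 epithelial markers without values, and the summed level of the others was 264 and 245 in GSK3368712, against 228 and 264 in DMSO. Most of it was at Esrp2 (base mean 224), which overlaps Nfatc3 on the other strand. Krt8, which overlaps Gm36026 on the other strand, held 21 and 19 reads in GSK3368712 A and B, against 23 and 20 in DMSO. Vil1, which overlaps Usp37, held 5 and 4 reads in GSK3368712, against 6 and 5 in DMSO. Cdh1 and Krt19 held at most 2 reads in any library. Of 10 fibroblast markers 6 had values and 1, Col3a1, rose (log2 fold change 0.96 ± 0.14, SE; limma, adjusted p = 1.5e-07). Their sum was 1708.9 and 1523.3 in GSK3368712, against 1171.7 and 1169.1 in DMSO, most of it at collagen genes, with no values at Thy1, Fap, Postn and Lum. Pdgfra of the same list, named after its values were seen, lay the other way, with 42.2 and 53.1 normalised reads in GSK3368712, against 65.5 and 72.0 in DMSO, and was not called (log2 fold change -0.53 ± 0.21, SE; limma, adjusted p = 0.23). The part of this list in the values at the ligand genes was not tested. Endothelial markers (2 of 6 with values) summed to 6.17 and 2.00 normalised reads in GSK3368712, against 0.897 and 2.09 in DMSO. Melanocyte genes (2 of 6 with values), which include Pmel of the line's name, summed to 27.8 and 35.1 in GSK3368712, against 27.8 and 33.4 in DMSO. Nearly all of it was at Pmel (base mean 30.3), which overlaps Cdk2 and Dgka on the other strand. Whether these reads came from the gp100 of the line was not tested.

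The genes of most similar profile over the 4 libraries, by Euclidean distance between centred log2(normalised reads + 1) values among genes of 0.5 to 2 times the base mean, were Akap8l and Mafk for Pvr (distances 0.102 and 0.115 among 3639 genes). For Nectin2 they were Cpsf1 and Kmt2d, for Cd47 Amigo3 and Rab28, and for Cd276 Ppp4r1 and Nol12. With 4 libraries and so many candidates such neighbours are a description.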

How the data were processed

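The authors deposited one table. Its 4 library columns hold log2 values, as deposited by the authors; their antilogs match the deposited base mean, a signal (mean of reads over size factors), so they were read as shrunken log2 normalised reads. Per the file headers, the authors' DESeq2 gave the log2 fold change, its error, the Wald score, and p-values with and without adjustment. The submitters' processing notes name the build mm10 and the tools HISAT2 2.1.0, SAMtools 1.2, StringTie 1.3.0 and DESeq2. No source used here names the counting program or the annotation release. Of 12578 gene IDs with values, 10365 match GENCODE vM21 with their version and 12570 without it.

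Whole reads were worked back from the base means, printed to 15 significant digits. Size factors came from the lowest base means. Up to a base mean of 100 every combination of reads was searched (10537 genes, each with a single solution, all 6 ligand genes included). Above it a window was used. The solutions up to 100 also met the deposited fold change, a check that could not fail where a group held 0 reads, as at Nt5e in DMSO. In all, 12570 genes were solved and 8 were left out of fits on reads.

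limma 3.58.1 (R 4.3.3) with a trend was fitted to the deposited log2 values of the 8562 genes whose base mean reached 10, all tests two-sided; p-values come from this fit. Its prior had 182 degrees of freedom against 2 residual ones. Fold changes, standard errors and intervals come from limma on log2(recovered normalised reads + 1), a pseudocount that understates changes of low genes. The ligand genes, lists and the rule for other genes named (called genes of a list, at most 3, otherwise its smallest p, plus relatives and partners of the ligands) were chosen with earlier results of these data known.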

Additional observations from a re-analysis of the deposited data

How the results depend on the processing

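With all genes tested, 111 were higher and 72 lower. Without an abundance minimum the counts were 12 and 4. On recovered reads scaled by library total they were 67 and 58, and with voom, which changes input, model and scaling together, 71 and 61. The authors' deposited table had 16 and 10, by DESeq2 and over the 4527 genes it gives an adjusted p. Leaving out 1 library, where the lone library of a group is assumed to vary like the other group, gave from 42 to 178 higher and from 21 to 76 lower. No ligand gene was called under any of these settings except Pvr without DMSO A (log2 fold change -0.81, adjusted p = 0.043). With 1 library left out, log2 fold changes ran from -0.81 to -0.45 at Pvr, from -0.04 to 0.25 at Nectin2, from -0.32 to 0.17 at Cd47, from -0.06 to 0.16 at Cd276 and from -1.17 to 0.07 at Cd274. Among other genes, the sign turned in the same way at Icosl (-0.20 to 0.96), Cmtm6 (-0.21 to 0.75) and Qpctl (-0.31 to 0.33). Qpctl also turned with scaling by library total (-0.03) and with voom (-0.01). Without a minimum neither Trappc4 (adjusted p = 0.21) nor Thbs1 (0.095) was called. Lgals1 was called without DMSO B (adjusted p = 0.0029). The causes were not tested. Cd274 and Nt5e were too low in reads for the test.

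The columns carry letters and not the replicate numbers of the labels, so nothing but a shared letter links libraries between groups. With that letter as a replicate block, a choice made after seeing the data that leaves 1 residual degree of freedom, 133 genes were higher and 94 lower. Pvr was still not called (limma, adjusted p = 0.053), and no call changed at the other tested ligand genes or at Thbs1, Trappc4 and the other tested genes named from the 8 lists. Deviations of same-letter libraries from their group means correlated across genes at r = 0.08, and genes are not independent replicates.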

Other observations

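Of the accompanying genes, 15 had values under the abundance minimum, and in 5 of them (33.3%) the groups did not overlap, against 34.4% of all genes under it, so this share is near the background. The following were picked from these 5 after their values were seen and carry no test. Vsir, which encodes the inhibitory B7 family protein VISTA, held 1 and 5 reads in GSK3368712 A and B, against 14 and 8 in DMSO. Itgb3, an integrin chain that pairs with the alpha-v chain, held 10 and 8 reads in GSK3368712, against 3 and 5 in DMSO. Cd160, which lies opposite Pdzk1, held 9 and 5 reads in GSK3368712, against 3 and 1 in DMSO.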
